A study of Mus musculus with 8 samples.

Results

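The regions described here are 1376 wide domains of H3K27me3 in the chromatin of untreated mouse macrophages. They were chosen by the H3K27me3 peak list of untreated cells alone: windows of 500 bp centred on the listed positions were joined on the 19 autosomes wherever less than 1 kb lay between them, and joined regions of 4000 bp or more were kept. The 1376 domains were 3.84% (3.64 to 4.04) of the 35870 merged regions, held 8695 of the 57157 autosomal positions and covered 8.21 Mb. Their positions, widths and heights in untreated cells are therefore descriptions, and only the 7 other libraries are independent of the choice. The cells were bone marrow-derived macrophages, phagocytes grown in culture from the marrow of female Fvb mice 6 to 8 weeks old. They were untreated (0 h) or given lipopolysaccharide, a bacterial cell wall component, together with interferon gamma, a cytokine of the T cell response. Chromatin immunoprecipitation and sequencing (ChIP-seq) mapped H3K27me3 and the promoter mark H3K4me3 at 0 and 4 h, RNA polymerase II (Pol II) at 0, 2 and 4 h, and the demethylase Jmjd3 at 2 h. There was a single library for every combination of antibody and time, so differences between times have no replicate check and no p-value is given. Ranges in brackets after a share are exact 95% binomial intervals. They reflect counting error alone, and adjacent peaks depend on one another.

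H3K27me3 is the methyl mark that the Polycomb repressive complex with the enzyme Ezh2 writes on histone H3, and it can spread over many neighbouring nucleosomes. Wide stretches of it are a known feature of silent genes for developmental transcription factors, such as the Hox clusters, in cells that do not use them. Promoters that carry H3K27me3 together with H3K4me3 are called bivalent and usually show little transcription. Jmjd3 (Kdm6b) removes methyl groups from this lysine, and macrophages induce it when they meet lipopolysaccharide. Regions are named by position on mm8, since the gene table at hand is on another build and was not used for placing genes.

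The domains were listed among 59684 H3K27me3 positions at 0 h and 89093 at 4 h, 21418 and 19631 H3K4me3 clusters at 0 and 4 h, 55600, 57200 and 57513 Pol II positions at 0, 2 and 4 h, and 4398 Jmjd3 positions. The only value of a peak is the authors' overlap count, called its height, and heights are read within their own list. The exact depths of the libraries are unknown. On chromosomes 13 to 18 the Pol II list of untreated cells stops 3.04 to 17.3 Mb before the other Pol II lists. Of the wide domains, 37 lie beyond these points and could have no Pol II listed at 0 h.

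Most domains were a few kilobases wide, with a thin tail of very wide ones. The median width was 5263 bp, the middle 50% ran from 4477 to 6569.5 bp and the widest reached 23223 bp. Domains of 4000 to 4999 bp numbered 582, those of 8000 to 9999 bp 92, and 85 were 10000 bp or more. A domain held 4 to 24 positions, with a median of 6, and neighbouring positions inside it were 511 to 1499 bp apart, with a median of 1028 bp. Heights of 0 h positions in the domains had a median of 15, against 11 for autosomal positions elsewhere. The tallest position of a domain had a median height of 30 and at most 140, while the whole list reached 397. At the limit of the rule, the 3 domains just inside were 4001, 4002 and 4004 bp wide with tallest heights of 28, 17 and 22, and the 3 regions just outside were 3999, 3999 and 3998 bp wide with tallest heights of 65, 57 and 15.

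**Figure D1:**
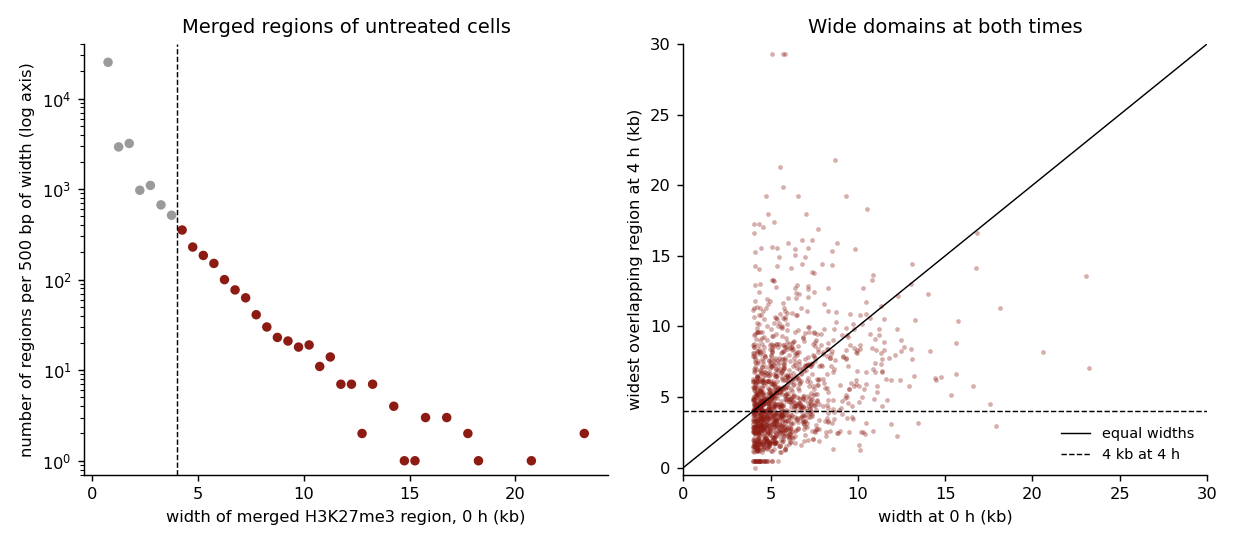
The left plot gives the number of merged H3K27me3 regions of untreated cells per 500 bp of width (log axis), grey below and red above the 4 kb limit. The right plot sets the width of each of the 1376 wide domains at 0 h against the widest merged region overlapping it at 4 h, where 519 points lie above the line of equal widths and 857 below it.

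The widest domain spanned 75933899 to 75957121 on chromosome 15. It was a chain of 21 positions with heights up to 32. At 4 h it held 19 positions, which formed 6 merged regions, the widest of 7051 bp, and together they covered 70.7% of it. The next widest, 93308527 to 93331597 on chromosome 5 (23071 bp, 24 positions), stayed nearly whole: 95.4% of its length was covered at 4 h and its largest 4 h region was 13563 bp. The third, 88291760 to 88312384 on chromosome 3 (20625 bp), held an H3K4me3 cluster of height 86 at 0 h, and 2 clusters up to 82 at 4 h. This domain had 2 low Pol II positions (heights up to 16) at 2 h and none at 0 or 4 h. At 84439262 to 84457386 on chromosome 11 lay a domain of 18125 bp with neither H3K4me3 nor Pol II at any time, covered for 92.4% at 4 h.

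Among the 10 widest, the length covered at 4 h ran from 49.6% (38746425 to 38764318 on chromosome 18) to 98.9% (61177671 to 61194480 on chromosome 11). The chromosome 18 domain overlapped 7 merged regions of the 4 h list, the widest 2970 bp, and the chromosome 11 domain overlapped a single 4 h region of 16619 bp. The other domains of the 10 were 17570 bp on chromosome 9 (57926395 to 57943964), 16760 bp on chromosome 11 (96074968 to 96091727), 16575 bp on chromosome 15 (102817213 to 102833787) and 15765 bp on chromosome 5 (122233645 to 122249409), with 68.5, 85.1, 57.0 and 84.6% covered at 4 h. Jmjd3 and Pol II at 0 h overlapped none of the 10; the chromosome 15 domain at 102817213 lies beyond the end of the 0 h Pol II list.

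**Figure D2:**
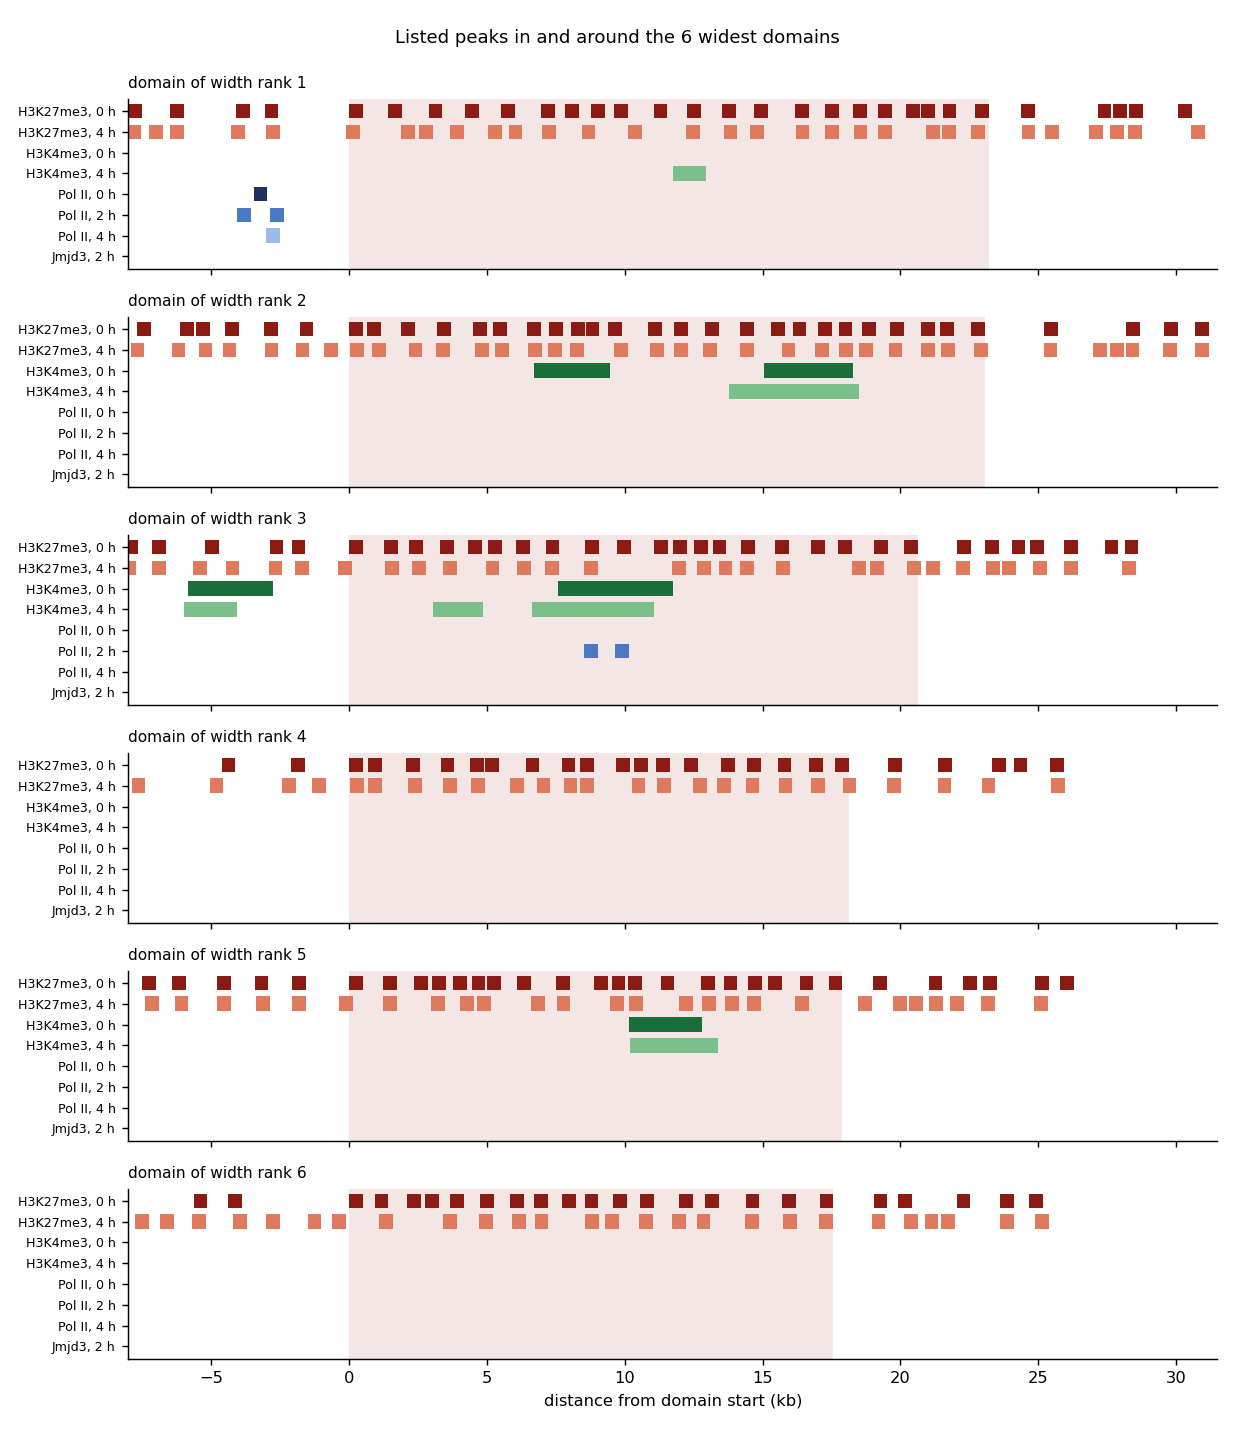
Each panel shows the listed peaks of all 8 libraries against the distance from the start of 1 of the 6 widest domains in kb, with single positions drawn as 500 bp windows, H3K4me3 clusters at their own width and the domain shaded. H3K27me3 windows line the domains at 0 and 4 h, and the only Pol II windows inside are the 2 at 2 h in the domain of width rank 3.

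Wide domains up to 50 kb apart were chained into groups. By this rule 807 of the 1376 fell into 258 groups of 2 or more, and 569 stood alone. At least 5 domains were in 42 groups. Neighbouring wide domains lay under 2 kb apart in 97 pairs, which the merging rule counts as separate. Narrower regions were not chained in the same way, so whether grouping is particular to wide domains was not tested. The group with most domains spanned 102734945 to 103012281 on chromosome 15: 14 domains in 277 kb, which covered 38.8% of that stretch. Of those 14, 12 overlapped a region of at least 4000 bp at 4 h, 5 held H3K4me3 at 0 h, and 1 had Pol II, at 4 h; the group lies beyond the end of the 0 h Pol II list. The next groups were 10 domains at 84338135 to 84526588 on chromosome 11 (188 kb, 1 with H3K4me3), 9 at 95987026 to 96226965 on chromosome 11 (4 with H3K4me3 at 0 h and 5 at 4 h) and 9 at 122190663 to 122339985 on chromosome 5 (none with H3K4me3). None of these 3 groups had a wide domain with Pol II at any time or with Jmjd3 at 2 h. That is the common state: of all wide domains, 92.4% had no Pol II at any time and 1.67% had Jmjd3. Chromosome 11 held 169 wide domains, or 142 per 100 Mb, the most of any autosome, and chromosome 3 held 30, or 19.1 per 100 Mb, the fewest per length. As a share of a chromosome's merged regions, wide domains ran from 2.51% on chromosome 16 to 5.25% on chromosome 15.

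The first comparison asked what became of the domains 4 h after stimulation. Nearly all had H3K27me3 listed at 4 h, while the merged outline often differed between the 0 h and 4 h lists. With 1 library per time, whether stimulation changed the outline was not tested. Of the 1376 domains, 1375 (99.9%, 99.6 to 100) overlapped at least 1 position at 4 h, against 73.0% of all merged regions. A wider region meets a position more easily, and regions of 2000 to 3999 bp were nearly the same, at 99.5% (99.2 to 99.7). Of the domains, 854 (62.1%, 59.4 to 64.6) overlapped a merged region of at least 4000 bp at 4 h, against 12.3% of all merged regions and 30.6% (29.0 to 32.2) of the regions of 2000 to 3999 bp. A single 4 h region overlapped 574 domains, 2 regions overlapped 602, and 3 or more overlapped 199. The median share of a domain's length covered by merged 4 h regions was 76.2%. It was at least 90% in 406 domains and under 50% in 168. The number of positions was lower at 4 h in 837 domains, equal in 448 and higher in 91. The domains were chosen for closely spaced 0 h positions, so a lower count in another list can follow from the choice. This count was not taken in the other direction, and a loss of positions was not tested.

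Because the domains were selected on their 0 h width, the width and the covered share were also taken in the other direction. By the same rule the 4 h list gave 2426 wide domains. Seen at 0 h, 35.9% (34.0 to 37.8) of those overlapped a region of at least 4000 bp, their median covered share was 58.3%, and 1556 overlapped no wide domain of untreated cells. With the 4 h list cut to the tallest positions, as many as at 0 h, there were 1512 wide domains at 4 h. The shares were then close: 51.5% (48.8 to 54.1) of the 0 h domains overlapped a region of at least 4000 bp at 4 h, and 47.3% (44.7 to 49.8) of the domains of the cut list overlapped such a region at 0 h. Under a merging gap of 500 bp only 53 domains qualified, of which 7.55% (2.09 to 18.2) stayed wide, and under 2 kb 3609 qualified, of which 88.4% (87.4 to 89.5) did. With the 4 h list limited to positions above its median height, 40.5% (37.9 to 43.1) of the 1376 did.

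Single positions tell of the same stretches without the merging step. Of the 8695 positions in wide domains, 7165 (82.4%, 81.6 to 83.2) had an overlapping 4 h position, against 72.2% of all autosomal positions. A 4 h position lay within 1 kb of 8365 (96.2%, 95.8 to 96.6), against 81.1% (80.7 to 81.4) in narrower regions. At 4 h the domains held 880 positions per Mb, so a neighbour within 1 kb does not show that a given peak lasted. The share with an overlapping position in narrower regions was 70.3% as listed and 79.6% when weighted to the exact heights of positions in wide domains. For regions of 2000 to 3999 bp, weighted likewise, it was 82.5%, which lies inside the interval of the wide domains. By height class, wide domains were above the pool of all narrower regions for low peaks, but close to regions of 2000 to 3999 bp. At heights 9 to 10, 68.9% (66.5 to 71.2) of positions in wide domains and 54.3% (53.6 to 55.0) in all narrower regions had a 4 h partner, and 67.6% (65.8 to 69.3) in regions of 2000 to 3999 bp. At heights of 18 or more the share was 89.1% (88.0 to 90.1) in wide domains, 91.2% (90.6 to 91.8) in all narrower regions and 89.7% (88.6 to 90.7) in regions of 2000 to 3999 bp. Within the wide domains, outermost positions had a partner in 83.9% (82.5 to 85.3) and inner ones in 81.7% (80.7 to 82.7), and these intervals overlap. The gap lay in the taller classes, with 88.0% (85.3 to 90.3) against 82.3% (80.4 to 84.2) at heights 13 to 17 and 93.0% (91.2 to 94.5) against 87.6% (86.3 to 88.8) at 18 or more. Low positions were not separated, with 70.1 against 68.1% at heights 9 to 10 and 77.2% for both at 11 to 12.

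At 4 h the domains held 7473 positions. They stood high in their own list: 62.8% (61.7 to 63.9) were above height 18, the upper quartile of the 4 h list, against 19.9% (19.7 to 20.2) of 4 h positions elsewhere on autosomes. Median heights were 22 and 13. The positions elsewhere include those outside any H3K27me3 region of the 0 h list. In narrower 0 h regions the 4 h medians were 39 inside H3K4me3 clusters and 15 outside them, against 46 and 20 in wide domains. The share above height 18 was not taken for narrower regions, so whether it is particular to wide domains was not tested. New positions in the wide domains, with no overlapping position at 0 h, numbered 323 and had a median height of 18. The merging rule leaves only short gaps between 0 h windows inside a domain, so a 4 h window has little room to miss them. The small number can therefore follow from the choice of domains, and whether new positions were rare was not tested. Domains whose tallest 0 h position was 10 to 19 stayed wide less often (54.4%, 49.2 to 59.4) than those at 20 to 30 (68.4%, 62.9 to 73.5) or 31 to 56 (65.2%, 60.0 to 70.1). The class of 57 to 140 was at 61.6% (56.2 to 66.9), and its interval overlaps those of the 3 other classes.

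The domains named next are the extremes of rankings by the share covered at 4 h and by 4 h width relative to 0 h. In the 4 least covered, median 0 h heights were 9 to 11. The lowest listed height was 9 at 0 h and 10 at 4 h, so these positions lay near the floor of the lists. With a single library per time, a loss of H3K27me3 in them was not tested. At 5924540 to 5928631 on chromosome 11 a chain of 4 low positions (heights up to 14, width 4092 bp) had no position at 4 h, the single domain of which this was true. The next least covered, on chromosomes 11 (55206888 to 55211581), 3 (8684353 to 8688760) and 2 (173191699 to 173196294), each kept 1 position, and their tallest 0 h heights were 12, 11 and 12. The fifth, 45785310 to 45789412 on chromosome 4, carried an H3K4me3 cluster of height 52 at 0 h and 38 at 4 h, and its 1 remaining H3K27me3 position had height 31. In the opposite direction, 3 neighbouring domains on chromosome 7, which began at 144028581, 144036523 and 144044152 and were 5737, 5804 and 5064 bp wide, lay in a single 4 h region of 29308 bp. In all, 9.08% of the domains shared a 4 h region with another wide domain. Domains at 32698482 on chromosome 16 (4079 bp) and 144691149 on chromosome 7 (4050 bp) lay in 4 h regions of 17290 and 16650 bp.

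H3K4me3 was compared next, since a promoter mark inside a domain of H3K27me3 is the bivalent state. Many wide domains contained it, at both times alike. Clusters overlapped 546 domains (39.7%, 37.1 to 42.3) at 0 h, against 15.6% of all merged regions, and 561 (40.8%, 38.2 to 43.4) at 4 h, against 16.0%. The mark was listed at both times in 503 domains, at 0 h only in 43, at 4 h only in 58 and at neither in 772 (56.1%, 53.4 to 58.7). A wider region meets a cluster more easily, and by length the wide domains were close to other merged regions of more than 1 position. Clusters of untreated cells covered 18.5% of their length, 18.8% of the length of regions of 2000 to 3999 bp and 16.9% of that of regions of 501 to 1999 bp. For regions of 1 position it was 10.7%. Over the autosomal span of the lists, clusters covered 2.76%. Most of these clusters were low. Counting only clusters above their list's median height, 7.41% (6.08 to 8.93) of the domains held one at 0 h and 5.81% (4.64 to 7.18) at 4 h.

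**Figure D3:**
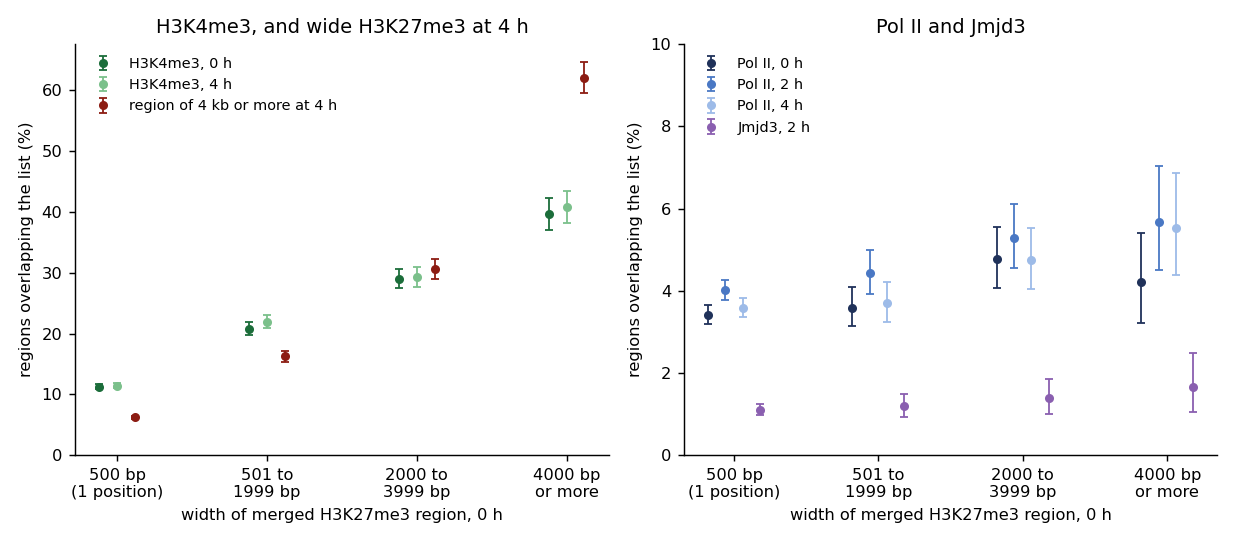
Points give the share of merged H3K27me3 regions of untreated cells, by width class, that overlapped each list, with exact 95% binomial intervals as bars. In regions of 4000 bp or more H3K4me3 at 0 h reached 39.7% and a 4 h region of at least 4000 bp 62.1%, while Pol II stayed between 4.22 and 5.67% and Jmjd3 at 1.67%.

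Along the domain, H3K4me3 was highest in the middle and fell off on both sides with no sharp edge. Clusters of untreated cells covered 21.1% of domains on average over the 4 central of 20 equal parts, 16.2% over the 4 parts at the ends, 13.9% in the first 1 kb outside and 9.18% at 3 to 5 kb outside. At 4 h the same means were 21.4, 17.6, 14.8 and 9.31%. Of the 594 clusters in wide domains at 0 h, 201 lay wholly inside and the rest crossed an edge. A single cluster was present in 481 domains, 2 clusters in 63 and 3 or more in 2. Where a cluster was present, the median share of domain length it covered was 44.3%.

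**Figure D4:**
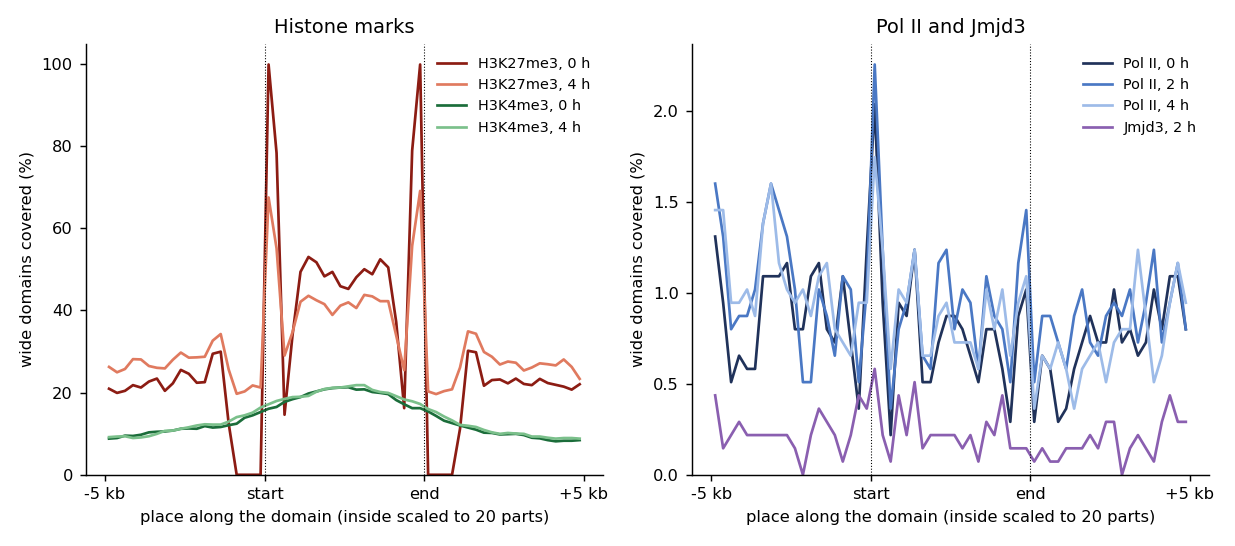
Curves give the share of the 1376 wide domains covered by a listed window or cluster at each place along the domain, whose inside is scaled to 20 parts, and in flanks of 5 kb in bins of 250 bp. H3K27me3 at 0 h is fixed at the edges by the rule (full at the first and last window, empty for 1 kb outside), H3K4me3 rises to 21.1% in the centre, and Pol II and Jmjd3 stay at or below about 2% on their own axis.

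Inside the domains H3K27me3 peaks were taller where H3K4me3 was present. In the 4 h library, which took no part in the choice, positions lying in a 0 h H3K4me3 cluster had a median height of 46 (middle 50%, 28.25 to 72, 1346 positions). Positions of wide domains outside clusters had a median of 20 (15 to 28, 5877 positions). The same held for narrower regions, with medians of 39 and 15, so it was not particular to wide domains. In untreated cells the medians in wide domains were 32 and 14. By domain, the tallest 4 h position had a median height of 72 where H3K4me3 was listed at both times, 36 where it was listed at 0 h only, 52 at 4 h only and 28 where there was none. In the domains with a cluster, positions were about as dense inside clusters as outside them, 1.03 against 1.07 per kb at 0 h and 0.884 against 0.869 per kb at 4 h. Width at 4 h took another order: 58.6% (54.2 to 63.0) of the domains with H3K4me3 at both times overlapped a region of at least 4000 bp at 4 h, 76.7% (61.4 to 88.2) of those with it at 0 h only, 69.0% (55.5 to 80.5) at 4 h only and 63.0% (59.4 to 66.4) of those with none. All 4 intervals overlap, and the groups with the mark at a single time are small, with 43 and 58 domains.

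The H3K4me3 clusters themselves were low and lasting. Their median height was 31 in wide domains against 83 for other autosomal clusters at 0 h, and 33 against 105 at 4 h, while they were slightly wider (3149 against 2794.5 bp at 0 h). Of the 594 clusters in wide domains at 0 h, 555 (93.4%, 91.1 to 95.3) overlapped a cluster at 4 h, against 86.8% of all autosomal clusters. Low clusters made the gap. At heights 11 to 21, 81.7% (75.8 to 86.6) of those in wide domains were listed again at 4 h, 78.9% (76.3 to 81.4) of those at narrower H3K27me3 regions and 43.7% (42.1 to 45.2) of those outside H3K27me3 regions. Taller clusters were listed again nearly everywhere: all 381 of height 22 or more in wide domains, against 98.9% of all autosomal clusters of that height. Weighted to the exact heights of the clusters in wide domains, the share was 92.7% at narrower H3K27me3 regions and 79.0% outside them, so persistence was shared by clusters at H3K27me3 of any width.

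Pol II was seldom listed at these clusters. Of the 594, 61 (10.3%, 7.95 to 13) overlapped Pol II at 0 h, against 60.7% of all autosomal clusters. At 2 h it was 81 (13.6%, 11 to 16.7) against 60.9%, and at 4 h 75 (12.6%, 10.1 to 15.6) against 60.7%. Clusters outside H3K27me3 regions, weighted to the same heights, had Pol II at 0 h in 54.0%, and those at narrower H3K27me3 regions in 16.2%. Both weighted values lie above the interval of the wide domains. Among clusters of height 79 to 182, Pol II at 0 h was at 30 of 92 in wide domains (32.6%, 23.2 to 43.2), at 48.0% (45.2 to 50.8) of those at narrower regions and at 90.3% (89.3 to 91.3) of those outside. In that class 43 of the 92 (46.7%, 36.3 to 57.4) had Pol II at 2 h and 36 (39.1%, 29.1 to 49.9) at 4 h. The counts come from the same 92 clusters at each time, so their separate intervals do not compare the times, and a change was not tested. In that class the other sets were also higher at 2 h, with 59.5% (56.7 to 62.2) at narrower regions and 93.1% (92.3 to 93.9) outside. Away from the chromosome ends where the 0 h list stops, their 0 h shares in that class were 49.1 and 92.6%. Over all heights, clusters outside H3K27me3 regions had Pol II in 71.6% at 0 h and 70.6% at 2 h. Those at narrower regions had it in 26.9 and 31.8%.

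**Figure D5:**
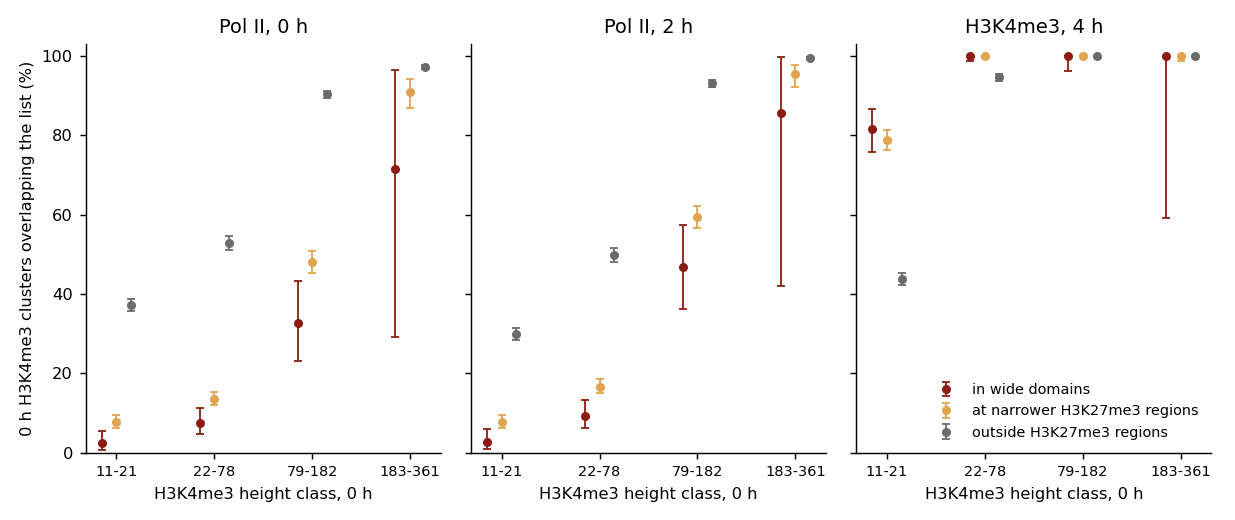
Points give the share of H3K4me3 clusters of untreated cells that overlapped Pol II at 0 h (left), Pol II at 2 h (middle) and H3K4me3 at 4 h (right), by H3K4me3 height class, with exact 95% binomial intervals. At heights 79 to 182, Pol II at 0 h was at 32.6% of clusters in wide domains, 48.0% at narrower H3K27me3 regions and 90.3% outside H3K27me3 regions.

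Over whole domains, Pol II was rare. The share of domains with it was near that of regions of 2000 to 3999 bp, which was 4.77, 5.29 and 4.74% at 0, 2 and 4 h. The shares of all merged regions lay below the intervals of the domains at 2 and 4 h, and inside at 0 h. Per length, wide domains held less Pol II than narrower regions. It was listed in 58 domains at 0 h (4.22%, 3.22 to 5.42), against 3.60% of all merged regions, in 78 at 2 h (5.67%, 4.51 to 7.02) against 4.27%, and in 76 at 4 h (5.52%, 4.38 to 6.86) against 3.79%. No Pol II at any time was listed in 1271 domains (92.4%, 90.8 to 93.7), against 94.3% of all merged regions. It was present at all 3 times in 39 (2.83%, 2.02 to 3.85), against 2.29%. Regions of 2000 to 3999 bp away from the chromosome ends where the 0 h list stops were close to both, with 92.7% (91.8 to 93.6) and 3.09% (2.52 to 3.76). Per length, which takes out the advantage of a wide region, the domains held 16.6, 20.5 and 17.9 Pol II positions per Mb at 0, 2 and 4 h. Regions of 2000 to 3999 bp held 24.0, 25.2 and 23.6 per Mb, regions of 1 position 48.3, 58.7 and 51.3, and the autosomal span 22.8, 23.4 and 23.5. With Pol II limited to positions above the median height of their list, 2.62% (1.84 to 3.60), 3.71% (2.77 to 4.84) and 3.27% (2.40 to 4.35) of domains held Pol II at 0, 2 and 4 h.

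Part of the Pol II in wide domains lay in 9 domains at 2 loci, which were singled out after their values were seen. The first locus had 4 domains in 53.3 kb at 3027170 to 3080422 on chromosome 11, all with H3K4me3 and Jmjd3, and 28, 31 and 29 Pol II positions at 0, 2 and 4 h. The second had 5 domains at 19707533 to 19778930 on chromosome 8, with 28, 30 and 27 Pol II positions, no H3K4me3 at 0 h and 1 Jmjd3 position. The 5 domains with most Pol II at 0 h, 7 or 8 positions each, all lay at these loci. Without these 9 domains Pol II was in 3.58% (2.66 to 4.71), 5.05% (3.95 to 6.34) and 4.90% (3.82 to 6.18) of domains at 0, 2 and 4 h, and the density was 10.1, 13.1 and 11.2 positions per Mb. Regions of 2000 to 3999 bp away from the same loci held 20.8, 22 and 20.5 per Mb.

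Pol II was more frequent where H3K4me3 was listed at both times than where there was none. At 0 h Pol II was in 40 of the 503 domains with H3K4me3 at both times (7.95%, 5.74 to 10.7) and in 16 of the 772 with none (2.07%, 1.19 to 3.34). At 2 h the numbers were 58 (11.5%, 8.87 to 14.7) and 17 (2.20%, 1.29 to 3.50), and at 4 h 53 (10.5%, 7.99 to 13.6) and 21 (2.72%, 1.69 to 4.13). At each time the intervals of both groups were apart. Domains with H3K4me3 at a single time had little Pol II, with 1, 2 and 1 of 43 at 0, 2 and 4 h where the mark was listed at 0 h only and 1 of 58 at each time where it was listed at 4 h only, too few to set them apart from either group.

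Pol II appeared after stimulation in a small number of domains. In 37 domains (2.69%, 1.90 to 3.69) Pol II was listed at 2 h but not at 0 h, against 1.69% of all merged regions, and at 4 h 30 (2.18%, 1.48 to 3.10) against 1.19%. A wide region meets a peak more easily, and regions of 2000 to 3999 bp away from the ends of the 0 h list had 1.99% (1.53 to 2.54) and 1.36% (0.984 to 1.82), with intervals that overlap those of the wide domains. Away from the ends of the 0 h list the counts were 36 and 28 of 1339. The opposite, Pol II listed at 0 h but not at 4 h, held for 12 domains (0.872%, 0.451 to 1.52), against 1.01% of all merged regions and 1.42% (1.04 to 1.90) of regions of 2000 to 3999 bp away from those ends. Among the 47 domains with Pol II at 2 or 4 h but not at 0 h, 36 had H3K4me3 at 0 h, against 39.7% of all wide domains. A region of at least 4000 bp at 4 h overlapped 31 of the 47, near the 62.1% of all wide domains, and 4 held Jmjd3, against 1.67%. Of the 47, 2 lie beyond the end of the 0 h Pol II list.

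Of the domains with none at 0 h, those with most Pol II at 2 h differed in how long it was listed. At 100167687 to 100172934 on chromosome 11 (5248 bp) an H3K4me3 cluster of height 196 at 0 h and 205 at 4 h accompanied 4 Pol II positions at 2 h (heights up to 55), 3 at 4 h (up to 51) and 1 Jmjd3 position of height 10. H3K27me3 there was 5 positions up to 37 at 0 h and 6 up to 33 at 4 h. At 108605475 to 108610851 on chromosome 5 (5377 bp), under a cluster of height 151 at 0 h and 135 at 4 h, 4 positions up to 25 were listed at 2 h and none at 4 h, and a 4 h H3K27me3 region of 6108 bp covered the whole domain. The domain at 103430035 to 103439769 on chromosome 2 had 4 low positions (up to 14) at 2 h only, and its H3K4me3 cluster of height 12 was not listed at 4 h. Another, at 124155338 to 124160879 on chromosome 4, held the tallest H3K27me3 position of all wide domains at 0 h (140), a 4 h position of height 193, and 2 Pol II positions at 2 h and at 4 h (up to 81 and 67). Its H3K27me3 was narrower at 4 h, with a widest region of 1547 bp and 52.7% of the domain covered. The fifth by count was the chromosome 3 domain described among the widest.

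Jmjd3, the enzyme that removes this mark, was listed at 2 h in very few wide domains. It overlapped 23 (1.67%, 1.06 to 2.50), against 1.17% of all merged regions, with 51 positions. Of the 51, 30 lay in the 4 chromosome 11 domains at 3027170 to 3080422, which held 7, 8, 7 and 8 in order of position (tallest heights 49, 56, 57 and 44). In 10 of the 23 domains a Jmjd3 position overlapped all 7 other lists; without those 10 the share was 0.952% (0.508 to 1.62), 13 of 1366. Without the 9 domains of the 2 loci it was 1.32% (0.782 to 2.07), and the density fell from 5.73 to 2.21 positions per Mb, against 5.29 per Mb in regions of 2000 to 3999 bp away from the same loci and 1.81 per Mb over the autosomal span. Counting Jmjd3 within 5 kb of a domain raised the share to 3.12% (2.27 to 4.19), and in domains of at least 6000 bp it was 3.28% (1.84 to 5.34). Both settings add length in which a peak can be met, and the 5 kb share was not taken for narrower regions. Jmjd3 positions above the median height of their list were in 0.872% (0.451 to 1.52).

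Most domains with Jmjd3 also carried H3K4me3. Of the 23, 19 had H3K4me3 at both times, against 36.6% of all wide domains, and 14 overlapped a region of at least 4000 bp at 4 h. Pol II was in 13 at 0 h, 17 at 2 h and 16 at 4 h. In 10 of the 23 these overlaps follow from a Jmjd3 position that overlapped every other list. Among the 13 whose Jmjd3 positions did not, 9 had H3K4me3 at 0 h, against 39.7% of all wide domains. Pol II was in 3 of the 13 at 0 h, against 4.22%, and in 7 at 2 h, against 5.67%. Of the same 13, 8 overlapped a region of at least 4000 bp at 4 h. With 13 domains, a difference of that last count from the 62.1% of all wide domains was not detectable. The Jmjd3 domain next in number of positions after the 4 on chromosome 11 was at 63961346 to 63969783 on chromosome 7 (8438 bp). It had 3 Jmjd3 positions up to 11, Pol II positions numbering 4, 9 and 4 at 0, 2 and 4 h, 2 H3K4me3 clusters up to 14 at 0 h, and a 4 h H3K27me3 region of 8068 bp that covered 95.6% of it.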

How the data were processed

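Bone marrow-derived macrophages were profiled by ChIP-seq with 1 library for each antibody and time, grouped by their titles. The deposited files are peak lists whose only value is a signal, the whole-number overlap count of tags at a peak, with no scaling to depth or control named per the file headers or labels. H3K4me3 peaks have a start and an end, and the others are single positions, per the file headers. The submitters' processing notes name mm8 as the build. The sources used here do not give the aligner, peak caller, threshold or control.

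From these lists windows, merged regions and overlaps (at least 1 bp) were computed, with exact Clopper-Pearson intervals at 95%. Height classes divide a list at its quartiles, and ties stay in the same class. Weighting to equal height takes, for each item in a wide domain, the share among other items of the same height. A list was taken to stop early where its last position on a chromosome lay over 1 Mb before those of the same antibody. Cutting the 4 h list to equal length broke ties at random (seed 20). Named domains are the 10 widest, the 5 least covered at 4 h, the 5 with the largest 4 h width relative to 0 h, the 5 with most Jmjd3, with most Pol II at 0 h, and with most Pol II at 2 h but not at 0 h, and the 3 at each side of the width limit. The members, lists and measures were chosen with earlier results of these data known. No mm8 genome was at hand, so no sequence is printed and gene annotation is not analysed here. The tools were scipy 1.17.1 for intervals, pandas 2.3.3 and numpy 2.4.6 for tables, and matplotlib 3.10.9 for plots, under Python 3.11.15. Merging and overlap were tested on simulated data, where 3000 of 3000 planted domains and 911 of 911 planted overlaps were recovered, and checked against bedtools 2.31.1 in 8 comparisons with identical counts.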

Additional observations from a re-analysis of the deposited data

How the results depend on the processing

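Every result is a count or share from single libraries with no test. No paired analysis of libraries was possible because each antibody and time has 1 library, and no result comes from a test. The number of domains rests on the merging rule: 53 with gaps under 500 bp, 3609 with gaps under 2 kb, 2559 with a minimum of 3000 bp and 458 with 6000 bp, and it stayed within 1.5 times of 1376 with 0 h positions of height 10 or more (1008). For the share still wide at 4 h (the same minimum used at both times), values were 7.55, 88.4, 68.0 and 51.5% under those 4 rules in that order, 67.0% with height 10 or more, 40.5% with the 4 h list above its median height and 51.5% with that list cut to equal length. For 0 h positions with a 4 h partner, values were 81.1% (gaps under 500 bp), 81.5% (2 kb), 83.4% (6000 bp), 84.4% (height 10 or more), 71.9% (above the median height), 78.5% (equal length) and 96.2% (within 1 kb). H3K4me3 at 0 h was in 36.7% (3000 bp), 44.8% (6000 bp), 45.8% (height 10 or more) and 7.41% (above the median height), and at 4 h in 37.7% (gaps under 500 bp), 37.0%, 48.0%, 47.1% and 5.81%. Pol II at 0 h was in 1.89% (gaps under 500 bp), 6.54% (2 kb) and 2.62% (above the median height), at 2 h in 3.77, 7.51 and 3.71%, and at 4 h in 6.87% (2 kb) and 3.27% (above the median height). Jmjd3 was in 3.28% (6000 bp), 0.872% (above the median height), 0.952% (without domains holding a Jmjd3 position that overlaps every list) and 3.12% (within 5 kb). Fewer or more regions qualify, or fewer peaks remain to be met, by the construction of these alternatives; any other cause was not tested. The other values, among them those that need the bare position inside the domain, leave out the chromosome ends or leave out the 2 loci on chromosomes 8 and 11 (an alternative chosen after seeing the data), lay inside the interval of the reported share.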

Other observations

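The X chromosome, which the rule leaves out, held 14 merged regions of at least 4000 bp among 2111 at 0 h (0.663%, against 2.51 to 5.25% on the autosomes), the widest 8748 bp. All 14 overlapped H3K27me3 at 4 h, 9 of them a region of at least 4000 bp. H3K4me3 was in 9 of the 14 at each time, Pol II in 5, 7 and 4 at 0, 2 and 4 h, and Jmjd3 in 3.

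Of the 2426 wide domains of the 4 h list, 31 had no H3K27me3 position at 0 h. Neighbouring wide domains of untreated cells lay under 2 kb apart in 97 pairs.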
